A study of Mus musculus with 24 samples.

Results

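The response to rosiglitazone (RSG) was followed in wild-type (WT) bone marrow-derived macrophages activated with IL-4. It was read from 6 of the 24 arrays of the series, 3 from cells given RSG and 3 from cells given its vehicle, chosen by their labels. All 6 cultures came from the marrow of 3 C57Bl/6 mice, and each mouse supplied 1 culture of either kind. The cells were grown with M-CSF at 20 ng/ml and received IL-4 at 20 ng/ml together with either 1 µM RSG or a DMSO and ethanol vehicle from plating on, and the labels give a time of 10 days. For comparison, WT cells without IL-4 and STAT6 knock-out (KO) cells with IL-4 were used, again with 3 RSG and 3 vehicle arrays each and the same M-CSF. The KO cells came from 3 other mice, labelled C57Bl/6 and STAT6 KO, and all macrophages were grown in culture from femoral marrow. The comparison addresses what a PPARγ ligand does to macrophages kept with IL-4, and how far that depends on IL-4 and STAT6.

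PPARγ is a nuclear receptor that pairs with RXR and binds direct repeats of the hexamer AGGTCA separated by a single base, termed DR1. Fatty acids and drugs of the thiazolidinedione class, RSG among them, activate it. In fat cells and macrophages it is known to control genes for the uptake, storage and burning of fatty acids. IL-4 acts on macrophages through the transcription factor STAT6 and turns on the program called alternative activation, whose markers include arginase 1 and the mannose receptor, and Pparg itself belongs to the genes that IL-4 is known to induce.

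Each value below is the log2 of a ratio between a probe set on one array and its own median over the arrays, so that 0 marks that median and levels of different genes cannot be compared. Changes are RSG minus vehicle differences of such log2 ratios ± SE, with 3 arrays per group. A probe set was called, and is said to have risen or fallen, when limma's adjusted p was below 0.05 and the change was at least 1.5-fold. The median of all probe sets lay between 0.014 and 0.087 on the 6 arrays. Stat6 was between 0.89 and 1.15 on all 6, while on the 12 KO arrays it was between -2.03 and -1.56. Of 11 measured macrophage identity genes none was called with limma, and 2 had an unadjusted p below 0.05. The mean of this list was -0.66 to -0.59 on vehicle arrays and -0.74 to -0.70 on RSG arrays. Markers of 8 other cell types (dendritic cells, mast cells and basophils, eosinophils, neutrophils, lymphocytes, erythroid cells and megakaryocytes, stromal fibroblasts, adipocytes) likewise had 0 calls with limma. Between 1 and 4 members per list had an unadjusted p below 0.05, in lists of 6 to 16 measured members. The highest count was that of the lymphocyte markers, 4 of 9 measured (3 higher and 1 lower with RSG), against 10.4% of all genes. The eosinophil mean was -1.12 to -0.18 with vehicle and between -1.69 and -1.2 with RSG, without overlap, and the means of the other 7 lists overlapped between the groups. Among these the lymphocyte mean was -1.37 to -0.49 and -0.61 to -0.26, the mast cell and basophil mean -0.68 to -0.09 and -0.49 to 1.02, and the stromal mean -0.93 to -0.09 and -0.74 to 0.62. The part of these lists in the results was not tested. Because ratios hold no zero, absence of a marker cannot be read from them. In these bulk cultures fewer cells of a type and less RNA per cell cannot be told apart.

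A small share of the transcriptome of IL-4-activated macrophages was called as changed with RSG, which does not show that the rest was unchanged. Of 45037 probe sets 310 were called (0.688%), 149 higher (0.331%) and 161 lower (0.357%) with RSG. With 1 probe set standing for each of 18193 genes, 94 genes rose (0.517%) and 95 fell (0.522%). The median change over all genes was -0.04, and 10.4% of all genes had an unadjusted p below 0.05, the share beside which such counts in the gene lists below are to be read. The median change was 1.04 among the genes that rose and -1.08 among those that fell. At least 4-fold changes were seen in 17 of the former and 13 of the latter. In 309 of the 310 called probe sets the 3 RSG arrays did not overlap with the 3 vehicle arrays, which was the case for 15.8% of all probe sets. The calls were made on these same arrays, so for called probe sets such separation is largely set by the call. Here and for single called genes below it describes the values and adds no support to the call. For 20 genes 2 or more probe sets rose and for 19 genes 2 or more fell, and no gene had probe sets called in opposite directions. These calls rest on a spread estimated over all 24 arrays. A fit of the 6 arrays alone called 0 probe sets with limma and 0 with the methods' t-test, against 3740 and 4181 at an unadjusted p below 0.05, and all 310 and 305 of the 310 were among those. How single calls fared is given below over 18 alternative settings that kept the shared spread: other normalizations and models, another choice of probe set, and leaving out arrays or mice.

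**Figure D1:**
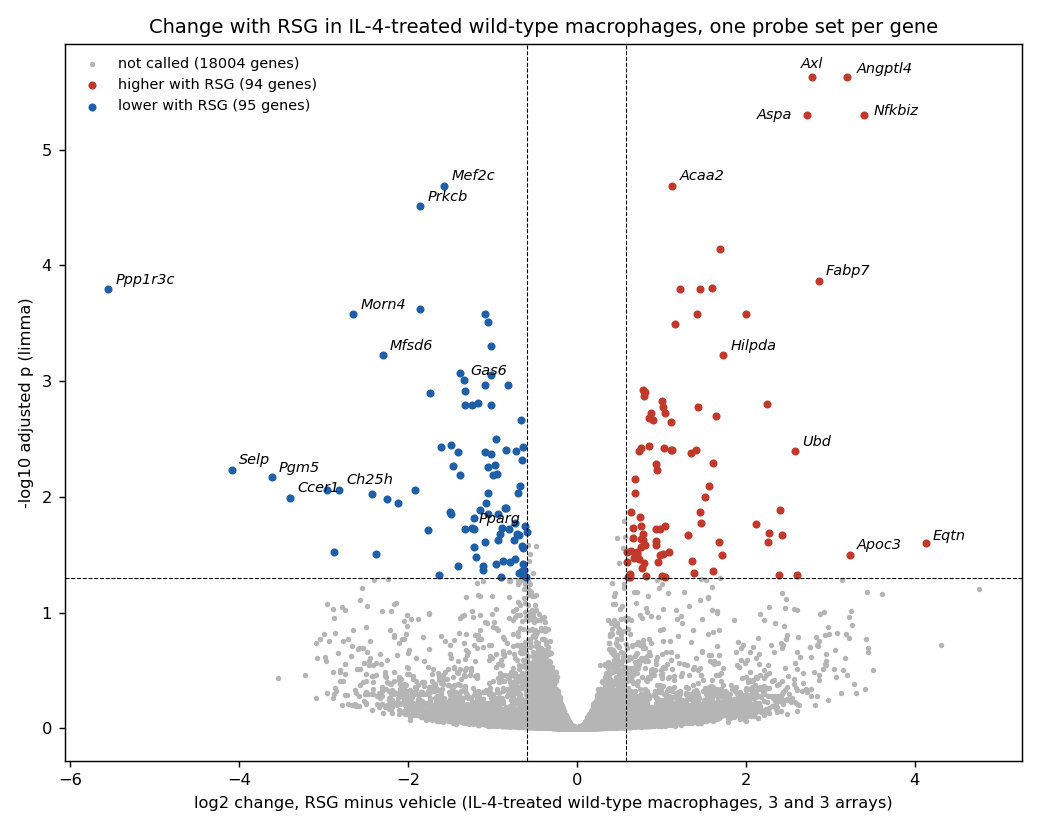
Each point is a gene. The horizontal axis gives the log2 change, RSG minus vehicle, in IL-4-treated WT macrophages (3 and 3 arrays), and the vertical axis the -log10 of limma's adjusted p; dashed lines mark the thresholds of 1.5-fold and 0.05. The 94 genes that rose are red and the 95 that fell are blue. Angptl4, Axl, Nfkbiz and Aspa stand highest on the right, and Ppp1r3c lies farthest to the left.

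The receptor gene itself fell. Pparg had log2 ratios of 2.54, 2.69 and 2.50 on the vehicle arrays of mice 1, 2 and 3, and of 1.31, 1.31 and 1.38 on their RSG arrays. The lowest vehicle array was far above the highest RSG array. The change was -1.25 ± 0.24 (2.37-fold lower, adjusted p = 0.0187). Leaving out any one of the 6 arrays except the RSG array of mouse 3, or any one mouse, ended this call, while the change stayed between -1.31 and -1.16 in all 18 settings. The level remained above that of WT cells without IL-4, where Pparg was between -0.02 and 0.45 with vehicle and between -0.96 and -0.03 with RSG. None of the other 15 measured receptors and coregulators was called. The list's range was -1.25 to 0.68, its median -0.10, and Pparg alone had an unadjusted p below 0.05. RefSeq places several start sites in Pparg. The 250 bases before the first of them hold a single AGGTCA hexamer, shown in capitals, which begins 28 bases before the start (GRCm38.p6, chr6:115360894-115361143, plus strand). The stretch is shown because it precedes the receptor gene whose RNA fell.
Pparg: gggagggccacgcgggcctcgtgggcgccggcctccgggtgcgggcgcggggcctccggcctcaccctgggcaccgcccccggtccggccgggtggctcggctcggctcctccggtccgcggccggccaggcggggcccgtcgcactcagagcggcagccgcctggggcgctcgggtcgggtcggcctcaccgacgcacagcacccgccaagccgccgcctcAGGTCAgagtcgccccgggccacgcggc

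Among genes of fatty acid uptake, binding and activation, 2 of 14 measured members rose and 1 fell, and the list median was 0.18. Angptl4, a secreted inhibitor of lipoprotein lipase and a classical PPAR target, had the clearest response. It was at -1.34, -1.11 and -0.79 on the vehicle arrays and at 1.94, 2.01 and 2.42 on the RSG arrays. All RSG arrays were thus well above the vehicle arrays. The change was 3.20 ± 0.23 (9.22-fold, adjusted p = 2.33e-06), and its other probe set rose by 3.09 ± 0.56. Slc27a1, which encodes a fatty acid transport protein, was at 0.35, 0.23 and 0.50 with vehicle and at 0.91, 1.06 and 1.12 with RSG. The groups did not overlap and the change was 0.67 ± 0.13 (1.59-fold, adjusted p = 0.0225), while its other probe set, at 0.69 ± 0.16, missed the threshold (adjusted p = 0.0533). With the mouse as a block the adjusted p of Slc27a1 was 0.0549, and 9 of the 18 settings ended its call. Fabp3, the heart-type fatty acid binding protein, was at -0.49, -0.59 and -0.75 with vehicle and at -1.10, -1.58 and -1.88 with RSG. Here every RSG array was lower, and the change was -0.91 ± 0.18 (1.88-fold lower, adjusted p = 0.0209), a call lost in 7 of 18 settings.

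Several well known PPARγ targets of the same list did not pass the test. Fabp4, the binding protein shared by fat cells and macrophages, was at 0.82, 0.78 and 0.53 with vehicle and at 1.14, 1.28 and 1.41 with RSG. All RSG arrays were above all vehicle arrays, but the difference was 0.57 ± 0.20 with a 95% interval of 0.16 to 0.98 (adjusted p = 0.294). The 4 probe sets of Fabp4 gave differences of 0.42 to 0.84 and none was called. Cd36, a scavenger receptor that takes up oxidized lipids, was at 2.02, 1.84 and 1.99 with vehicle and at 2.27, 2.43 and 2.60 with RSG. Again the arrays did not overlap, and the difference was 0.49 ± 0.20 (interval 0.07 to 0.90, adjusted p = 0.433). The other probe sets of Cd36 gave 0.043 ± 0.126 and 0.063 ± 0.125 and were not called. Lpl, the lipase that Angptl4 inhibits, was between 0.89 and 0.98 with vehicle and between 0.78 and 0.95 with RSG. These ranges overlapped and the difference of -0.06 had an interval of -0.40 to 0.28.

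Outside the fixed lists, another binding protein gene stood among the largest increases. Fabp7, the brain-type fatty acid binding protein, was at 0.11, 1.01 and 1.13 with vehicle and at 3.31, 3.66 and 3.88 with RSG. The RSG arrays lay far above the vehicle arrays, with a change of 2.87 ± 0.31 (7.29-fold, adjusted p = 0.000136). Apoc3, an apolipoprotein that slows the clearance of triglyceride-rich particles, was at -0.76, -4.47 and -3.56 with vehicle and at 0.78, -0.29 and 0.41 with RSG. The groups were separate although the vehicle arrays were widely spread, and the change was 3.23 ± 0.68 (adjusted p = 0.0317). The Apoc3 call was lost in 10 of 18 settings, among them each omission of an RSG array and the fit with the mouse as a block (adjusted p = 0.0794), whereas that of Fabp7 held in all 18. The 250 bases before the start of Fabp7 are shown because this gene had the largest increase among those called in all these settings that have an entry in the promoter table (GRCm38.p6, chr10:57784673-57784922, plus strand). They hold 1 such hexamer, read on the opposite strand in capitals, which begins 171 bases before the start.
Fabp7: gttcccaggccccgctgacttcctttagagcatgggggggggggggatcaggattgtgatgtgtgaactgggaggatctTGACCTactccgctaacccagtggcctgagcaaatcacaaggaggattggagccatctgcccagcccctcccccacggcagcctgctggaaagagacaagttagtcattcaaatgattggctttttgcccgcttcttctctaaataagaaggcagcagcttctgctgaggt

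Genes of the lipid droplet and of triglyceride turnover contributed 2 increases among 23 measured, with a list median of 0.02. Hilpda, a small lipid droplet protein that inhibits triglyceride lipolysis, was at 1.55, 1.80 and 2.37 with vehicle and at 3.32, 3.88 and 3.72 with RSG. No vehicle array reached an RSG array, and the change was 1.73 ± 0.22 (3.33-fold, adjusted p = 0.000596). Pnpla2, the lipase that Hilpda inhibits, was at 0.16, 0.22 and 0.14 with vehicle and at 0.73, 0.87 and 0.83 with RSG. This was a change of 0.64 ± 0.12 (1.56-fold, adjusted p = 0.0136) with no overlap, but its other probe set gave 0.11 ± 0.27 and was not called, and 7 of 18 settings ended the call. Plin2, the main droplet coat protein of macrophages, was at 0.56, 0.62 and 0.66 with vehicle and at 0.83, 0.92 and 1.02 with RSG. The arrays did not overlap and the difference of 0.31 ± 0.13 did not pass the test (interval 0.04 to 0.59, adjusted p = 0.468). The other members ranged from -1.62 for Cidec to 1.201 for Gpat3, neither of which was called.

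Of 28 measured genes of fatty acid oxidation 3 rose and none fell, 24 had a positive difference, and the median was 0.29. The list mean was 0.12 to 0.22 on vehicle arrays and 0.51 to 0.65 on RSG arrays, without overlap. Nor did the means overlap for LXR targets (0.08 to 0.12 and 0.47 to 0.66) and fatty acid uptake (0.13 to 0.26 and 0.39 to 0.71). The lipid droplet means were also apart (0.12 to 0.32 and 0.36 to 0.4), although the median change of that list was 0.02. The RSG and vehicle arrays did not overlap in 17 of the 28, against 17.8% of all genes, and the same held for 13 of 19 scavenger and efferocytosis genes, 13 of 24 genes of alternative activation, 9 of 15 LXR targets and 8 of 14 genes of fatty acid uptake. An unadjusted p below 0.05 was found for 14 of the 28 oxidation genes, against 10.4% of all genes, all of them higher with RSG. Such a p was also found for 13 of 19 scavenger and efferocytosis genes, 7 of 14 genes of fatty acid uptake and 7 of 15 LXR targets. The counts were 11 of 26 for proinflammatory genes and 7 of 18 for proliferation genes. In each of these other lists some were higher and some lower. Of the lipid droplet list, 4 of 23 had such a p. Acaa2, the thiolase of the last step of mitochondrial β-oxidation, was at 0.20, 0.28 and 0.15 with vehicle and at 1.33, 1.22 and 1.48 with RSG. The spread within each group was small beside the gap, and the change was 1.13 ± 0.10 (2.19-fold, adjusted p = 2.04e-05), with all 3 probe sets of the gene called between 0.99 and 1.13. Pex11a, which drives the multiplication of peroxisomes, was at 0.47, 0.87 and 1.10 with vehicle and at 1.62, 2.12 and 2.05 with RSG. Each RSG array was above every vehicle array, the change was 1.12 ± 0.18 (2.18-fold, adjusted p = 0.00393), and the other probe set of Pex11a rose by 1.68 ± 0.29. Cpt1a, the carnitine palmitoyltransferase that admits long-chain fatty acids to mitochondria, was at -0.17, -0.11 and 0.07 with vehicle and at 0.66, 0.60 and 0.92 with RSG. It rose by 0.80 ± 0.17 (1.74-fold, adjusted p = 0.0375) without overlap between the arrays, and 2 of its 3 probe sets were called. The Cpt1a call was lost in 11 of 18 settings, the mouse as a block among them (adjusted p = 0.0735).

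Etfb, a subunit of the electron transfer flavoprotein, passed the adjusted p (0.0222) with a change of 0.57 that fell short of 1.5-fold. Pdk4, the kinase that shuts pyruvate dehydrogenase and a common PPAR target, was at -3.09, -0.09 and -0.14 with vehicle and at 0.22, -0.27 and -0.58 with RSG. The vehicle array of mouse 1 set the difference of 0.90 ± 1.01 (adjusted p = 0.902), which was -0.10 without that array. The remaining members that were not called ranged from -0.20 for Decr1 to 1.58 for Acaa1b. Ech1, another enzyme of fatty acid oxidation, was not on the list and was chosen after its values were seen, and it rose by 0.81 ± 0.11. The 250 bases before the start of Cpt1a are given because Cpt1a is the called member of this list with an entry in the promoter table that controls entry into the pathway (GRCm38.p6, chr19:3323051-3323300, plus strand). They hold 1 AGGTCA hexamer on the opposite strand, in capitals, beginning 94 bases before the start.
Cpt1a: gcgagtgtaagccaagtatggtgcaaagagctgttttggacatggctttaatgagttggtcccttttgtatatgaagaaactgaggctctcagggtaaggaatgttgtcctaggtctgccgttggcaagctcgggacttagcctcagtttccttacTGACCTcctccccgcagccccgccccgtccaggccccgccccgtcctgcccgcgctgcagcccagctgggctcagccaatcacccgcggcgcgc

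DR1 elements were rare in such stretches. The DR1, a pair of AGGTCA hexamers with 1 base between them, was searched on both strands in the 250 bases before each start and found in 7 of 14452 measured genes with an entry (0.0484%). None of the 75 such genes that rose and 1 of the 76 that fell held one. Single AGGTCA hexamers, which every such DR1 contains, were found in 14.6% of all these genes, 13.3% of those that rose and 17.1% of those that fell. The palindrome of the kind STAT6 binds, TTC and GAA with 4 bases between them, was found in 5.92%, 2.67% and 2.63%. These shares describe letters in a short window and not binding. The gene with a DR1 was Ranbp17, an importin-like transport factor (GRCm38.p6, chr11:33513754-33514003, minus strand), and its element begins 131 bases before the start, in capitals apart from the spacer.
Ranbp17: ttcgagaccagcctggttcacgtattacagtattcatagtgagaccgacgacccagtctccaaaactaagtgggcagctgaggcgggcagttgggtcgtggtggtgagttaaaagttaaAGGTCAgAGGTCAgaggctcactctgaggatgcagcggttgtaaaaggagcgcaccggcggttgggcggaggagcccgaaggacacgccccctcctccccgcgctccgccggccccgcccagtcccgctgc

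**Figure D2:**
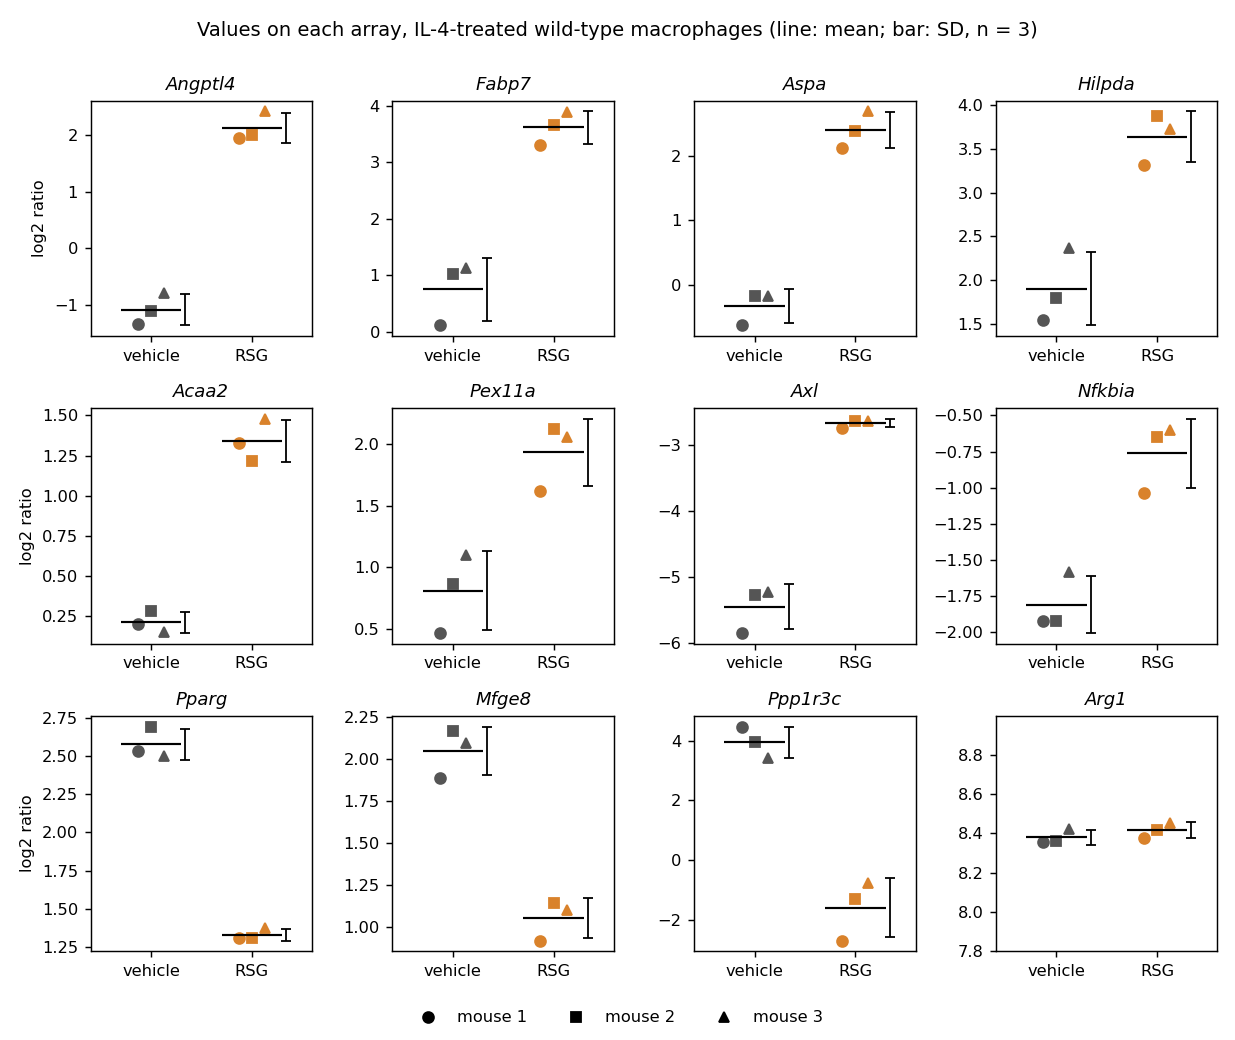
Log2 ratios (vertical axes) of 12 genes on the vehicle and RSG arrays of IL-4-treated WT macrophages; symbols mark the mouse, lines the mean and bars the SD (n = 3). In all panels but that of Arg1 the arrays of the groups are apart, upward for the first 8 genes and downward for Pparg, Mfge8 and Ppp1r3c.

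Targets of LXR, the oxysterol receptor that PPARγ can induce in macrophages, gave 1 increase among 15 measured, with 14 of the 15 differences positive and a median of 0.23. Lpcat3, an enzyme that inserts polyunsaturated fatty acids into phospholipids, was at -0.21, 0.03 and 0.00 with vehicle and at 0.89, 0.93 and 1.05 with RSG. The groups were clearly apart and the change was 1.02 ± 0.15 (2.02-fold, adjusted p = 0.00168). Scd1, the stearoyl-CoA desaturase, was at 1.11, 0.59 and 0.03 with vehicle and at 3.24, 2.88 and 2.64 with RSG. All RSG arrays were higher, yet the difference of 2.34 ± 0.73 was not called (interval 0.81 to 3.87, adjusted p = 0.218). It was called in 1 of the 18 settings, the fit without the 2 arrays of other groups that were highest in stromal markers (adjusted p = 0.00251). The other probe set of Scd1 gave 1.15 ± 0.48 and was not called. Abca1, the cholesterol efflux pump, had a difference of -0.52 and Abcg1 one of 0.75, and neither was called. Among 19 genes of sterol and fatty acid synthesis 0 were called with limma, 3 had an unadjusted p below 0.05, and the median was 0.09.

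The markers of alternative activation were not called, which does not show that they were unchanged. Of 24 measured members 0 passed with limma, 4 had an unadjusted p below 0.05 (10.4% of all genes did), and the median was -0.15 against -0.04 for all genes. Of the 24 differences 16 were negative and 8 positive. The arrays did not overlap in 13 of the 24, against 17.8% of all genes, and of these 13 only Tgm2 and Cdh1 were higher with RSG. The list mean was 2.34 to 2.48 with vehicle and 2.14 to 2.27 with RSG, also without overlap. Arg1, the arginase that defines this state, was at 8.35, 8.36 and 8.42 with vehicle and at 8.38, 8.42 and 8.45 with RSG. These ranges overlapped. The difference was 0.04 with an interval of -2.06 to 2.14, whose width reflects the other groups: the SD of Arg1 was 0.04 in both groups compared here and 3.04 in WT vehicle cells without IL-4. Retnla, a secreted resistin-like protein, was at 7.73, 7.66 and 7.68 with vehicle and at 7.57, 7.61 and 7.56 with RSG, a difference of -0.11 (interval -2.83 to 2.62). Chil3, a chitinase-like protein, was between 1.61 and 1.63 with vehicle and between 1.54 and 1.57 with RSG, a difference of -0.07 (interval -0.83 to 0.70). In both genes the RSG arrays were slightly lower without overlap. Their intervals are also widened by the other groups: in WT vehicle cells without IL-4 the SD was 4.55 for Retnla and 0.99 for Chil3. Mrc1, the mannose receptor, overlapped between groups with a difference of 0.02 (interval -0.41 to 0.45). Stat6 differed by 0.10 (interval -0.16 to 0.35). The largest differences on the list were -1.71 for the eotaxin gene Ccl24 and 0.84 for the cadherin gene Cdh1, and neither was called.

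Members of the IκB family, which regulates NF-κB, were among the genes that rose. Nfkbia, which encodes the inhibitor IκBα, was at -1.93, -1.92 and -1.59 with vehicle and at -1.04, -0.65 and -0.60 with RSG. The groups did not overlap, the change was 1.05 ± 0.15 (2.07-fold, adjusted p = 0.00188), and 4 of its 5 probe sets rose. Nfkbiz, the nuclear family member IκBζ, was at -5.72, -6.39 and -6.64 with vehicle and at -2.83, -3.08 and -2.63 with RSG. The last vehicle value is the lowest ratio in the table, 0.01, so that the change of 3.41 ± 0.27 (adjusted p = 5.05e-06) is in part set by that floor. The other 2 probe sets of Nfkbiz gave 0.63 and 0.87 and were not called, and raising ratios below 0.1 to 0.1 ended the call. All vehicle ratios of the called probe set lay below 0.1, so that loss is in part set by where the raised floor lies. Of 26 measured proinflammatory cytokines and mediators 2 rose and 1 fell (median 0.14). Besides Nfkbia, Cxcl2, a neutrophil chemoattractant, rose from -4.99, -4.52 and -3.19 to -2.98, -2.45 and -2.12, a change of 1.72 ± 0.36 (adjusted p = 0.0321) that was lost in 9 of 18 settings. Cd14, the co-receptor for bacterial lipopolysaccharide, was at -2.15, -2.11 and -1.94 with vehicle and at -3.06, -2.79 and -2.53 with RSG. Its fall of 0.73 ± 0.16 on the log2 scale (adjusted p = 0.0346) was likewise lost in 9 of 18 settings. Tnf and Il1b had differences of -0.56 and 0.15, and neither was called.

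The system by which macrophages recognize dying cells moved in both directions, with 2 of 19 measured scavenger and efferocytosis genes rising and 2 falling (median -0.34). Axl, a receptor tyrosine kinase that binds phosphatidylserine through its ligand Gas6, was at -5.85, -5.28 and -5.22 with vehicle and at -2.74, -2.63 and -2.62 with RSG. The gap between the groups was many times the spread within them, and the change was 2.79 ± 0.20 (6.90-fold, adjusted p = 2.33e-06). Its other probe set gave 1.42 ± 1.21 and was not called, and raising ratios below 0.1 to 0.1 ended the call. All vehicle ratios of the called probe set lay below 0.1, so that loss too is in part set by the raised floor. WT cells without IL-4 were between -0.94 and -0.13 with vehicle, so that Axl with IL-4 stayed below them also under RSG. Gas6 was at -1.37, -1.57 and -1.31 with vehicle and at -2.64, -3.07 and -2.56 with RSG. It fell by 1.34 ± 0.18 on the log2 scale (2.54-fold lower, adjusted p = 0.000984) without overlap, whereas its other probe set, at -0.87 ± 0.53, was not called.

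Mfge8, the secreted bridge between phosphatidylserine and αv integrins, was at 1.89, 2.17 and 2.09 with vehicle and at 0.92, 1.14 and 1.10 with RSG. All RSG arrays were lower and the change was -0.997 ± 0.17 (adjusted p = 0.00642). Itgav, the αv integrin subunit, was at 0.06, 0.01 and 0.00 with vehicle and at 0.53, 0.63 and 0.69 with RSG. This rise of 0.59 ± 0.12 (1.51-fold, adjusted p = 0.0298) was just past the fold threshold, rested on 1 of 5 probe sets and was lost in 11 of 18 settings, the mouse as a block among them (adjusted p = 0.0724). C1qc, a chain of complement C1q, passed the adjusted p (0.0259) with a difference of -0.58 that fell just short of 1.5-fold, and Mertk and Msr1 were not called.

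**Figure D3:**
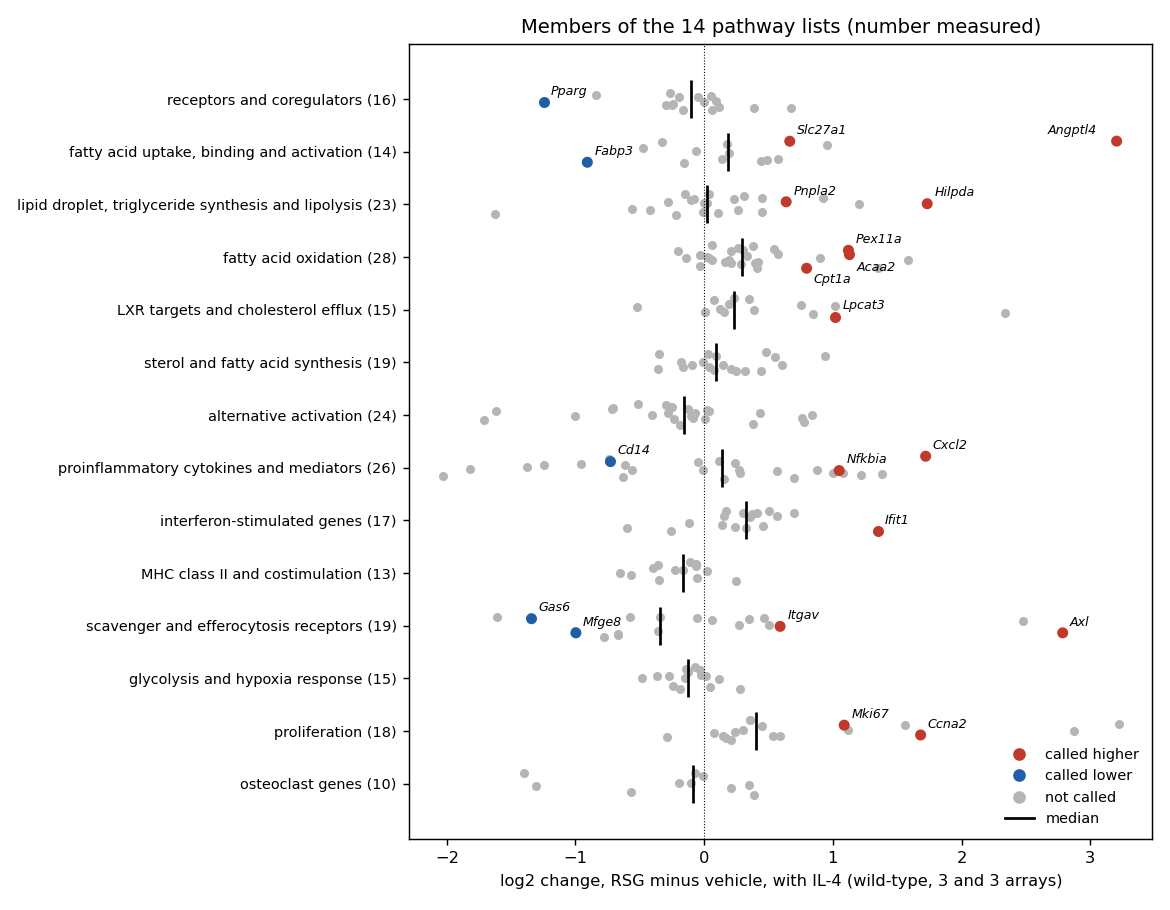
Each point is a measured member of 1 of the 14 pathway lists (vertical axis, number measured in brackets), placed at its log2 change, RSG minus vehicle, in IL-4-treated WT macrophages (horizontal axis; vertical scatter within a row is for legibility). Red and blue points were called higher and lower, black bars mark list medians. Medians lie between -0.34 and 0.41, and the 14 lists hold few called members each.

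Of 17 interferon-stimulated genes 1 rose (median 0.32): Ifit1, an antiviral RNA-binding protein, was at -2.96, -2.80 and -2.65 with vehicle and at -1.56, -1.50 and -1.31 with RSG. The arrays were fully apart and the change was 1.35 ± 0.22 (2.55-fold, adjusted p = 0.00414). Of 18 proliferation genes 2 rose, 17 had a positive difference, and the median of 0.41 was the highest of the 14 pathway lists. Mki67, the antigen Ki-67 of cycling cells, was at -3.68, -3.44 and -3.18 with vehicle and at -2.67, -1.82 and -2.56 with RSG, a change of 1.09 ± 0.23 (adjusted p = 0.0299). Ccna2, cyclin A2, was at -3.17, -3.66 and -2.70 with vehicle and at -1.57, -0.86 and -2.05 with RSG, a change of 1.68 ± 0.34 (adjusted p = 0.0248) on 1 of 2 probe sets. The mean of the proliferation list was -1.87 to -1.59 with vehicle and -1.22 to -0.54 with RSG, without overlap. Mki67 and Ccna2 were higher on all RSG arrays, most of all on that of mouse 2. The Mki67 call was lost in 9 of 18 settings and the Ccna2 call in 8 of 18. For both genes these included quantile normalization and the omission of mouse 1 or of mouse 2. Ccnb2 and Bub1 had larger differences, 3.22 and 2.88, that were not called. There were also 0 calls with limma among 13 genes of MHC class II and costimulation (1 at an unadjusted p below 0.05, median -0.16), 15 genes of glycolysis and the hypoxia response (2 at an unadjusted p below 0.05, median -0.13) and 10 osteoclast genes (2 at an unadjusted p below 0.05, median -0.09). The osteoclast list mean was 1.98 to 2.27 with vehicle and 1.78 to 1.95 with RSG, without overlap.

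The largest increases also held genes with no place on the lists. Aspa, the aspartoacylase that releases acetate from N-acetylaspartate, was at -0.63, -0.18 and -0.18 with vehicle and at 2.13, 2.38 and 2.69 with RSG. The change was 2.73 ± 0.22 (6.63-fold, adjusted p = 5.05e-06), without overlap and called in all 18 settings. Ubd, a ubiquitin-like modifier, was at -1.23, 0.27 and -0.20 with vehicle and at 1.66, 2.75 and 2.19 with RSG. Each RSG array was above each vehicle array and the change was 2.58 ± 0.42 (adjusted p = 0.00404). Aldoc, the aldolase of brain, rose by 2.39 ± 0.54 (adjusted p = 0.0478) with both probe sets called, but its arrays were widely spread, from -5.22 to -2.19 with vehicle and from -1.61 to -0.63 with RSG. The Aldoc call was lost in 12 of 18 settings, with an adjusted p of 0.0615 with the mouse as a block. Rab44, a Rab family GTPase of granule secretion, rose by 2.40 ± 0.45. Trpt1, a tRNA-processing enzyme, rose by 2.61 ± 0.59 with a call that was lost in 13 of 18 settings (adjusted p = 0.0656 with the mouse as a block).

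A pair of large increases rested on a single probe set that its companions did not share. Eqtn, a gene of the sperm acrosome, rose by 4.13 ± 0.84 on 1 of 3 probe sets, from -4.27, -2.05 and -1.73 to 1.79, 1.57 and 0.98, while the others gave -0.82 and 0.06. Vax1, a homeobox gene of the developing eye, rose by 2.43 ± 0.48 on 1 of 2 probe sets, from -0.38, -1.18 and -0.03 to 1.87, 2.73 and 1.10, while the other gave -0.43. With the mouse as a block neither was called (adjusted p = 0.0585 and 0.0757). Whether these probe sets measure the named genes was not tested.

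The deepest fall was that of Ppp1r3c, which encodes the subunit that brings protein phosphatase 1 to glycogen. It was at 4.47, 3.97 and 3.43 with vehicle and at -2.70, -1.32 and -0.77 with RSG. The highest RSG array was far below the lowest vehicle array, and the change was -5.55 ± 0.62 (46.9-fold lower, adjusted p = 0.00016), called in all 18 settings. Its other probe set gave -1.63 ± 0.97 and was not called. In WT cells without IL-4 Ppp1r3c was between -0.16 and 1.68 with vehicle, so that with RSG and IL-4 it lay below the vehicle level without IL-4. Pgm5, a relative of phosphoglucomutase found at cell adhesions, was at 3.14, 3.50 and 3.39 with vehicle and at 0.12, -1.23 and 0.29 with RSG. This was a change of -3.62 ± 0.62 (12.3-fold lower, adjusted p = 0.00677) with no overlap.

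Selp, the adhesion receptor P-selectin, was at 2.43, 2.31 and 2.02 with vehicle and at -2.001, -0.43 and -3.08 with RSG. All RSG arrays were lower and the change was -4.09 ± 0.69 (17.0-fold lower, adjusted p = 0.00581), with the other 2 of its 3 probe sets at -2.52 and -3.69 and also called. Ch25h, the hydroxylase that makes an oxysterol from cholesterol, was at 4.47, 3.13 and 4.48 with vehicle and at 1.197, 1.12 and 1.31 with RSG. The groups were apart and the change was -2.82 ± 0.50 (7.05-fold lower, adjusted p = 0.00869). Mfsd6, a membrane transporter-like protein, was at -0.07, -0.22 and 0.01 with vehicle and at -3.25, -2.23 and -1.69 with RSG. All 3 of its probe sets fell, with changes of -2.30 to -2.14, and Mfsd6 and Morn4 (-2.65 ± 0.31), a small protein with MORN repeats, were called in all 18 settings.

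Of the other large decreases, Ccer1 changed by -3.40 ± 0.61 and Cfap161, a protein of cilia and flagella, by -2.96 ± 0.52. Hmga2, an architectural chromatin protein, fell on 1 of 4 probe sets by 2.88 ± 0.60 on the log2 scale, with the others at -2.10, -1.50 and -0.14, and was not called with the mouse as a block (adjusted p = 0.0707). Krtcap3 changed by -2.42 ± 0.43, and Cd177, a surface protein of neutrophils, by -2.25 ± 0.41 while the neutrophil list as a whole overlapped between groups (means -4.36 to -3.56 and -4.23 to -3.28). Ranbp17, whose promoter letters are given above, was at 1.35, 0.62 and -0.24 with vehicle and at -1.89, -1.52 and -1.98 with RSG. Its fall of 2.38 ± 0.50 on the log2 scale (adjusted p = 0.0312) was found on 1 of 3 probe sets, and the others gave -0.48 and -0.09, and the call was lost in 10 of 17 settings.

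The genes Mef2c, Prkcb, Nrp1 and C5ar1, each called on 2 or more probe sets, were chosen after their values were seen. Mef2c, a transcription factor of the myeloid lineage and muscle, was at 1.28, 0.99 and 1.32 with vehicle and at -0.31, -0.35 and -0.46 with RSG. The arrays were far apart, the change was -1.57 ± 0.14 (2.97-fold lower, adjusted p = 2.04e-05), and 4 of its 5 probe sets fell. Prkcb, protein kinase C β, changed by -1.86 ± 0.18 with 2 of 3 probe sets called, and Nrp1, the semaphorin and VEGF co-receptor neuropilin 1, by -0.80 ± 0.17 with 4 of 4. In the opposite direction, C5ar1, the receptor for complement fragment C5a, rose by 1.13 ± 0.18 on 2 of 2 probe sets.

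The same drug was also given to WT cells without IL-4 and to KO cells with IL-4. Without IL-4, 53 probe sets were called (0.118%), 21 higher (0.0466%) and 32 lower (0.0711%). In KO cells with IL-4, 232 were called (0.515%), 56 higher (0.124%) and 176 lower (0.391%). By gene the calls amounted to 0.198% without IL-4 (0.066% higher, 0.132% lower) and to 0.857% in KO (0.198% higher, 0.66% lower). The genes described above were chosen by their change with IL-4 in WT cells, and a smaller change elsewhere is in part set by that choice. Among the 94 genes that rose, the median change was 1.04 with IL-4 in WT, 0.19 without IL-4 and 0.27 in KO. Of these, 64 had a positive difference without IL-4, 7 of them called, and 70 had one in KO, 13 of them called, while 2, Vax1 and Ifit1, fell in KO. Among the 95 that fell, the median was -1.08, -0.40 without IL-4 and -0.19 in KO. Of these, 84 had a negative difference without IL-4, 9 of them called, and 67 had one in KO, 5 of them called. The WT vehicle arrays without IL-4 differed among themselves, with Arg1 at -3.38, -2.71 and 2.19 and stromal marker means of 1.23, 2.66 and -0.30 for mice 1, 2 and 3. The KO arrays with IL-4 carried marker means of mast cells and basophils of 4.73 to 5.72 and of neutrophils of 3.44 to 3.85, far above the WT arrays. The part of either in these counts was not tested.

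Only 7 genes were called in the same direction in all 3 settings, and they were chosen by that. Angptl4 rose by 3.20 ± 0.23 with IL-4, 1.93 ± 0.23 without it and 1.73 ± 0.23 in KO. Its level under RSG was 1.94 to 2.42, 0.87 to 1.17 and 0.74 to 1.12, so the first group stood apart from both others. The differences between the changes, 1.27 (adjusted p = 0.324) and 1.47 (adjusted p = 0.0751), did not pass the test. Aspa rose by 2.73, 2.55 and 1.95, and its differences did not pass either. Sort1, the sorting receptor sortilin, rose by 1.00, 0.81 and 1.13, and Gngt2, a G protein γ subunit, by 0.98, 1.14 and 0.89. Cd72, a B cell and macrophage lectin, fell in each (-0.93, -1.32 and -1.32), as did the phosphodiesterase gene Pde7b (-1.05, -0.85 and -1.31) and Tmem171 (-1.50, -1.67 and -1.92).

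The change with IL-4 was then tested directly against the change without it. The test called 13 probe sets (0.0289%), 8 with a higher (0.0178%) and 5 with a lower (0.0111%) change with IL-4. By gene there were 5 calls (0.0275%; 0.022% higher, 0.0055% lower): Nfkbiz, Axl, Acaa2 and Brca1 with a higher change and Sema4b with a lower one, the last 2 chosen after their values were seen. Acaa2 rose by 1.13 ± 0.10 with IL-4 and had 0.11 ± 0.10 without it, a difference of 1.02 (adjusted p = 0.0223; 0.0511 with the mouse as a block). Axl rose by 2.79 ± 0.20 with IL-4 and had 1.00 ± 0.20 without it (difference 1.78, adjusted p = 0.04), from starting levels that were lower with IL-4, and this call was lost in 12 of 17 settings. Brca1, a DNA repair gene, rose by 2.01 on 1 of 4 probe sets against -0.51 without IL-4, and Sema4b, a semaphorin gene, had -0.26 against 2.86. Fabp7 rose by 2.87 with IL-4 and had 0.35 without it (difference 2.51, adjusted p = 0.0717), and Hilpda rose by 1.73 and had -0.04 (difference 1.77, adjusted p = 0.075), so both just missed the threshold. Fabp4 had 0.57 and 0.13, a difference that was not called (adjusted p = 0.914). Without mouse 2 limma called 0 probe sets for this difference (2275 at an unadjusted p below 0.05), and with the mouse as a block it called 5.

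Against KO cells with IL-4 the change differed at 163 probe sets (0.362%), 116 higher (0.258%) and 47 lower (0.104%) in WT, and at 0.605% of genes (0.456% higher, 0.148% lower). The genes that moved in WT were chosen by a change that is itself part of this difference. Their counts here are thus in part set by that choice. Of the 94 genes that rose in WT, 16 had a higher change than in KO, and of the 95 that fell, 17 had a lower one. Among these Axl rose by 2.79 in WT and had 0.08 in KO (difference 2.71, adjusted p = 0.000213), Acaa2 rose by 1.13 and had 0.43 (difference 0.70, adjusted p = 0.0487), and C5ar1 rose by 1.13 and had -0.22 (difference 1.35, adjusted p = 0.0257). With the mouse as a block the last 2 were not called (adjusted p = 0.0749 and 0.0699). Ppp1r3c had -5.55 and -0.63 (difference -4.92, adjusted p = 0.0169), Prkcb -1.86 and -0.08, and Mfsd6 -2.30 and -0.19, the last not called with the mouse as a block (adjusted p = 0.104). Pparg was lower with RSG in every background, with -1.25 in WT with IL-4, -0.70 without IL-4 and -0.82 in KO. The changes without IL-4 and in KO were not called, and the differences from the first did not pass the test (adjusted p 0.914 and 0.844). Lpcat3 (1.02 and 0.74) and Itgav (0.59 and 0.72) rose in both genotypes. List medians of the change in WT and KO were 0.29 and 0.28 for fatty acid oxidation and 0.18 and 0.22 for fatty acid uptake. For LXR targets they were 0.23 and 0.22. In KO the oxidation list mean was -0.47 to -0.41 with vehicle and -0.28 to -0.04 with RSG, without overlap. Fatty acid uptake and LXR target means did not overlap in KO either. In WT cells without IL-4 the oxidation mean overlapped, at -0.2 to 0.15 with vehicle and -0.04 to 0.07 with RSG. So did the uptake mean (-0.12 to -0.05 and -0.12 to -0.08), whereas that of LXR targets was apart (-0.23 to -0.01 and 0.1 to 0.18). Differences between list means were not tested. The medians in WT with IL-4 and KO lay further apart for proliferation genes (0.41 and -0.075) and for scavenger and efferocytosis genes (-0.34 and 0.078).

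Most of the calls between genotypes lay outside the genes that moved in WT cells. The interferon-stimulated list had 14 of 17 members with a higher change in WT, where its median was 0.32, against -2.16 in KO. Its mean was 2.83, 3.19 and 3.24 on the KO vehicle arrays with IL-4 and 1.01, 0.88 and 1.04 on the KO RSG arrays, which did not overlap. On WT arrays it was -1.09, -0.87 and -0.68 with vehicle and -0.52, -0.41 and -0.81 with RSG, which did. These 14 calls came with large falls in KO cells, where 15 members were called, while 1 was called in WT.

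**Figure D4:**
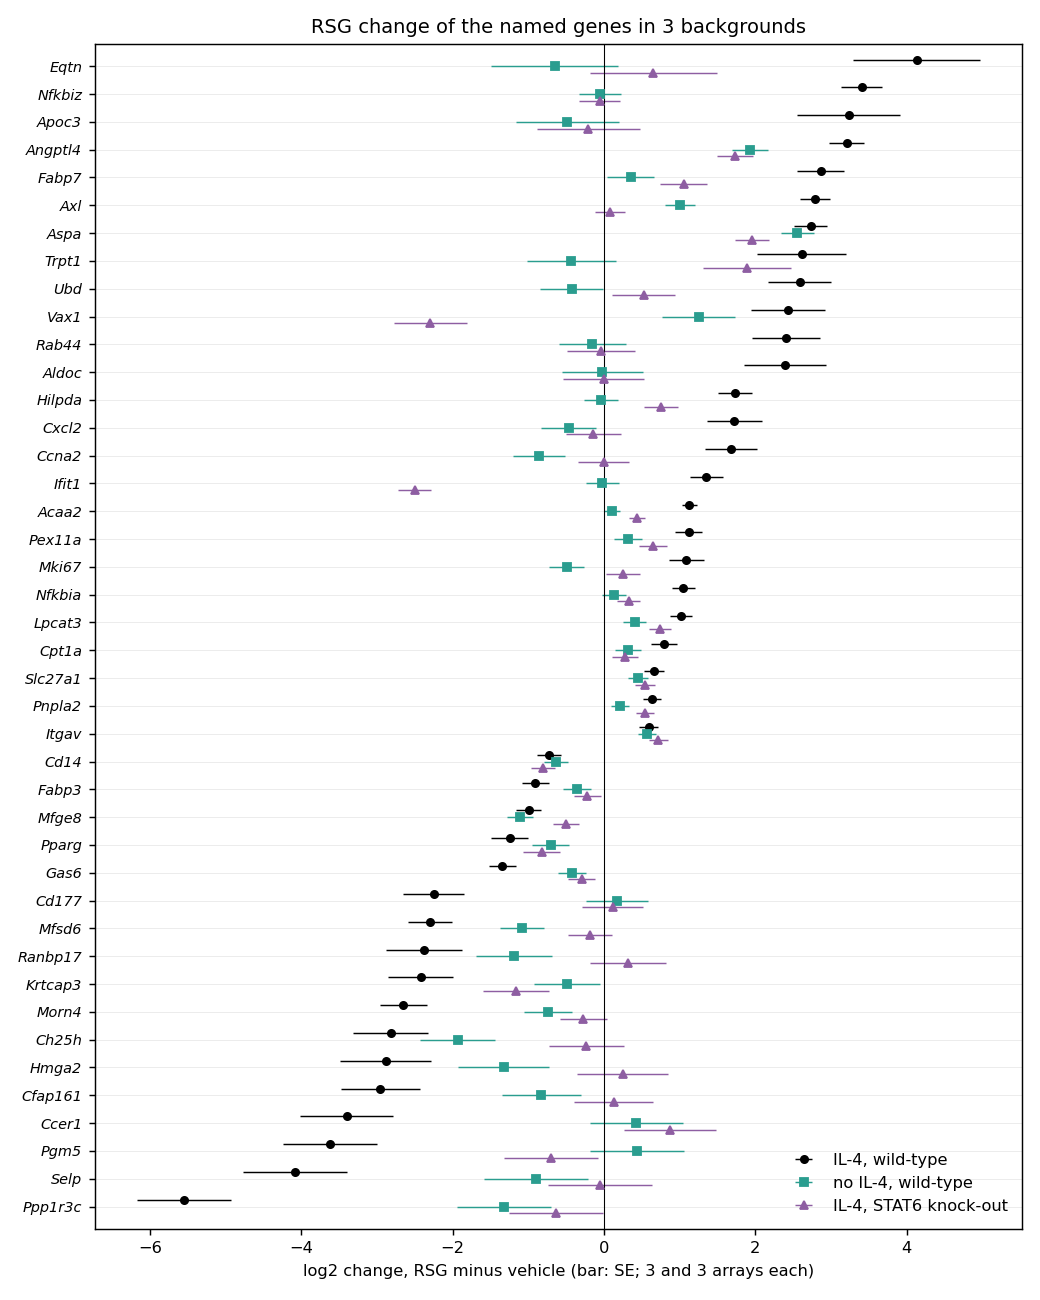
Log2 change, RSG minus vehicle (horizontal axis; bars are the SE), of the 42 named genes called in IL-4-treated WT macrophages (vertical axis), in WT cells with IL-4 (black circles), WT cells without IL-4 (green squares) and STAT6 KO cells with IL-4 (purple triangles), 3 and 3 arrays each. Angptl4 and Aspa stand far above 0 in all 3, while Rab44 lies at 2.40 against -0.15 and -0.04; genes were chosen for the black values.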

How the data were processed

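Total RNA from bone marrow-derived macrophages was hybridized to Affymetrix whole-genome mouse arrays. Per the methods, the authors summarized probe sets by GC-RMA and divided values in GeneSpring by the 50th percentile of each array and by the median of each probe set, and the deposited values are linear ratios. GCOS and GCRMA are the tools listed in the submitters' processing notes, with no version. A further division by vehicle arrays named in the methods was not seen in the values. Ratios scaled in this way hide levels, and the lowest, 0.01, acts as a floor (23 values on the 6 arrays compared). The table held 45101 probe sets on 24 arrays, all 24 columns were used, and no array pair was identical. The number of arrays limits the precision, since arrays have no read depth.

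The log2 of the ratios was taken and 64 Affymetrix controls were left out. Platform annotation named 34945 probe sets by 1 gene, 932 by several and 9160 by none, and 34741 were matched to RefSeq by identifier. A gene was represented by the probe set with the highest F statistic over the 18 arrays of the 6 groups not compared. The 24 arrays in 8 groups were fitted with limma 3.58.1 in R 4.3.3 (lmFit and eBayes, 16 residual degrees of freedom), and p-values were adjusted over all 45037 probe sets (Benjamini-Hochberg). Calls needed an adjusted p below 0.05 and 1.5-fold. Differences between RSG responses were contrasts of the same fit. The script was tested on simulated data. Named were the 12 largest called increases and decreases without overlap, up to 4 called members of each of 14 pathway lists, and 15 fixed genes, of which 13 had a named probe set; others are said to be chosen after their values were seen. Members, lists and 9 marker lists were chosen with earlier results of these data known.

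Replicate numbers mark the mouse, so that same-numbered arrays of a genotype are paired. Deviations from group means nevertheless correlated little in the 18 WT same-mouse pairs (mean r = 0.015, from -0.023 to 0.046, 0 above 0.1). Alternatives were a block for the mouse, the t-test named in the methods, limma on the compared arrays alone, a variance trend, robust eBayes, quantile normalization, centring, a floor of 0.1, probe sets with a median ratio of 1 only, the probe set with the highest mean, and leaving out arrays or mice. Promoter letters come from RefSeq (GRCm38.p6). Python 3.11.15 with pandas 2.3.3, numpy 2.4.6 and matplotlib 3.10.9 was used for summaries and figures.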

Additional observations from a re-analysis of the deposited data

Results flagged for a closer look

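Several genes responded to RSG in IL-4-activated WT macrophages by an amount that differed from another background by limma's test of the difference itself (Benjamini-Hochberg over all probe sets). All values are differences between log2 changes, with 3 arrays in each of 4 groups. These genes were named for a called change in WT cells with IL-4, which is part of each difference. The direction of the difference is in part set by that choice.

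Against WT cells without IL-4 the response was higher by 3.46 for Nfkbiz (adjusted p = 0.00277), by 1.78 for Axl (adjusted p = 0.04) and by 1.02 for Acaa2 (adjusted p = 0.0223). Against KO cells with IL-4 it was higher by 3.47 for Nfkbiz (adjusted p = 0.000299), by 2.71 for Axl (adjusted p = 0.000213), by 0.70 for Acaa2 (adjusted p = 0.0487), by 4.72 for Vax1 (adjusted p = 0.00328) and by 3.85 for Ifit1 (adjusted p = 9.77e-06). The last 2 fell in KO cells. A vehicle array of Nfkbiz lay at the lowest ratio, 0.01, and with ratios below 0.1 raised to 0.1 none of the 4 differences of Nfkbiz and Axl was called. With IL-4 all WT vehicle ratios of both genes lay below 0.1, so this loss is in part set by where the raised floor lies. The Nfkbiz difference from no IL-4 was also lost with a variance trend and without mouse 2, and that of Axl was lost in 12 of 17 settings. The Axl difference from KO was also lost with a variance trend.

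Lower responses than in KO cells were found for Ppp1r3c with -4.92 (adjusted p = 0.0169), Ccer1 with -4.27 (adjusted p = 0.0396), Morn4 with -2.38 (adjusted p = 0.023) and Mfsd6 with -2.11 (adjusted p = 0.0338). With the mouse as a block, Ccer1 (adjusted p = 0.108), Morn4 (0.0733), Mfsd6 (0.104) and both differences of Acaa2 (0.0511 and 0.0749) were not called, while Ifit1 was called in all 17 settings run. Mast cell and neutrophil marker means were far higher on the KO arrays with IL-4 than on the WT arrays, and their part in these differences was not tested.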

How the results depend on the processing

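The RSG response in IL-4-treated WT cells rested on the spread shared by all 24 arrays. With limma on the compared arrays alone it had 0 calls (3740 at an unadjusted p below 0.05), the difference from no IL-4 had 0 (2734) and that from KO had 75. With the methods' t-test these were 0 (4181), 0 (2787) and 68. Under the other settings run on all probe sets, no probe set called in the main analysis changed sign, and with no array left out the RSG response had between 191 calls (quantile normalization, 188 of them among the main 310) and 384 (arrays centred on their median, 307 of them among the main 310). Quantile normalization gave 8 calls for the difference from no IL-4 and 43 for that from KO, and centring gave 35 for the former. The replicate block (mouse) gave 285 calls for the RSG response, 242 of them shared with the main 310, and 5 and 139 for the differences. A variance trend gave 5 for the difference from no IL-4. Leaving out single arrays of the 6 or a whole mouse gave 116 to 286 calls for the RSG response, 0 to 23 and 48 to 156 for the differences. Without the 2 arrays of other groups that were highest in stromal markers there were 337, 18 and 134. Without mouse 1, 2 or 3 the RSG response had 122, 116 and 189 calls, and without the RSG array of mouse 2 it had 191. The share of calls that were higher was 35.7% without the RSG array of mouse 3 and 54.5% without the vehicle array of mouse 2.

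Of the 42 named genes that were called, 33 were still called with the block, 27 after quantile normalization, 31 with the probe set of the highest mean, and 19, 14 and 23 without mouse 1, 2 or 3. The block ended no other call of a named gene than those given in the text. Acaa2, Angptl4, Aspa, Fabp7, Mfsd6, Morn4 and Ppp1r3c were called in all 18 settings that kept the shared spread. Directions reversed for Eqtn with the other probe set (-0.82) and for differences that were never called: Arg1 after quantile normalization (-0.11), Mrc1 when arrays or mice were left out (-0.054, -0.029 and -0.045; range -0.054 to 0.085), Pdk4 without the vehicle array of mouse 1 (-0.096) or without mouse 1 (-0.311; range -0.311 to 1.566), and Lpl without mouse 1 (0.008; range -0.122 to 0.008). The cause was not tested. With the probe set of the highest mean the calls in lists became 1 for fatty acid uptake, 1 for lipid droplets, 1 for alternative activation, 2 for proinflammatory genes, 2 for scavenger receptors and 1 for proliferation. Ratios near the floor of 0.01 limit what can be said of Nfkbiz and Axl with vehicle. Raising ratios below 0.1 to 0.1 also ended the calls of Cxcl2, Mki67 and Cd177.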
